A study of Mus musculus with 6 samples.

Results

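The 54 genes described here build and run the DNA replication machinery of a dividing cell and supply its nucleotides. They were listed by symbol for their known roles, with no threshold on a measured value, and cover origin recognition and licensing (9 genes), the MCM2-7 helicase core (6), helicase activation (8), the replicative polymerases and primase (7), the sliding clamp and its loader (6), single-strand binding and Okazaki fragment processing (5), chromatin assembly and DNA methylation at the fork (5), nucleotide supply (4) and the G1/S entry regulators that start the process (4). All 54 were among the 24938 genes listed. Fen1 was the only one to fall below the expression filter, so 53 were tested.

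RNA was sequenced from NIH3T3 cells, an established line of mouse embryonic fibroblasts. The 3 overexpression libraries came from cells made to overexpress F-CircAE, labelled as a fusion circular RNA related to AML1-ETO, the product of a chromosome translocation in human acute myeloid leukaemia that joins RUNX1 to RUNX1T1. The 3 other libraries came from NIH3T3 cells labelled wild type. The labels name no empty-vector group, so effects of the circular RNA and of the overexpression procedure cannot be told apart. Separate cultures are not named for the replicates either. The p-values therefore measure only how these 6 libraries spread, and that spread may be technical. The level of F-CircAE itself was not analysed here.

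Replication begins when the origin recognition complex, with Cdc6 and Cdt1, loads the ring-shaped MCM2-7 helicase onto DNA in G1. The kinase pair of Cdc7 and Dbf4 and the cyclin E kinase then let Cdc45 and the GINS complex turn that ring into a moving helicase, behind which primase and the polymerases copy both strands. Many of these genes are transcribed in a wave before S phase under the control of E2F factors, so in a culture their RNA follows the share of cells that are entering S phase. In bulk RNA, fewer cells of a type, here cells in S phase, and less RNA per cell cannot be told apart.

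Because E2F factors read short DNA letters near the start of these genes, the promoters of 4 members are shown first. Mcm6 and Mcm5 stand for the helicase core, the role group with the highest median estimate over the 6 libraries. Pola1 was one of the 2 members with the smallest unadjusted p, and Cdc25a carries the same letters but had an estimate below 0. Pold2, the other of the 2, held none of these letters in its promoters, and neither did Mcm2 of the helicase core. Each line gives the 200 bases before the annotated start, 5′ to 3′ on the gene's strand, from RefSeq on GRCm38.p6. Mcm6 lies at chr1:128359706-128359905 on the minus strand, Mcm5 at chr8:75109309-75109508 on the plus strand, Pola1 at chrX:93632156-93632355 on the minus strand and Cdc25a at chr9:109875379-109875578 on the plus strand. Capitals mark every match to 4 E2F-type letter sets, TTTCCCGC, TTTGGCGC, TTTCGCGC and TTTGCCGC, on either strand.
Mcm6: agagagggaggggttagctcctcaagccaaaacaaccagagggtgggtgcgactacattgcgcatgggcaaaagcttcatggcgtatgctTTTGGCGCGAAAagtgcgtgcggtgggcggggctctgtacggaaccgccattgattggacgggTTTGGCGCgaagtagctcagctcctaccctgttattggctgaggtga
Mcm5: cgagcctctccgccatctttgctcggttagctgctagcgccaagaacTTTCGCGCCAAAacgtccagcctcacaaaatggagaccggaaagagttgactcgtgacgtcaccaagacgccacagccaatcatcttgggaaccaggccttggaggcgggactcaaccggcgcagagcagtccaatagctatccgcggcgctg
Pola1: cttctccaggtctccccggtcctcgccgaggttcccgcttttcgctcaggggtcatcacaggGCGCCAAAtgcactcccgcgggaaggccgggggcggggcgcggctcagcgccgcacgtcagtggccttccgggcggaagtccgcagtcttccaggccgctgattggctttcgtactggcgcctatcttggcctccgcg
Cdc25a: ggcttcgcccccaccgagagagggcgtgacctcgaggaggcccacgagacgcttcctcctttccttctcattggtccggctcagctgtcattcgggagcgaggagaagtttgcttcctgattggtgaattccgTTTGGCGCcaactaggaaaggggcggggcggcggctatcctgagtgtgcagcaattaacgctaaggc

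In Mcm6 the first capitals, which begin 110 bases before the start, hold TTTGGCGC and, overlapping it on the other strand, TTTCGCGC. A second TTTGGCGC begins 47 bases before the start. Mcm5 holds the same overlapping pair in the opposite order, beginning 153 bases before its start. The single match of Pola1 begins 138 bases before the start on the other strand, and that of Cdc25a 67 bases before it.

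Of the 54 members 46 had a promoter in the RefSeq table. The 8 without one were Ccne2, Gins1, Gins2, Gins4, Gmnn, Mcm4, Prim2 and Rfc2. In windows of 250 bases before to 50 after the start, 18 of the 46 (39.1%) held at least 1 of the 4 letter sets, against 2.6% of the 27025 symbols in the whole table. They were Cdc25a, Cdc6, Cdk2, Cdt1, Dnmt1, Gins3, Lig1, Mcm3, Mcm5, Mcm6, Mcm7, Orc1, Orc3, Pola1, Pold1, Pold3, Rfc3 and Uhrf1. By role, the letters stood in at least 1 promoter of 4 of 5 helicase core members and 4 of 8 licensing members in the table, and of none of the 4 nucleotide supply members. The letters CCAAT, which mark the box bound by NF-Y, stood on either strand in 29 of the 46 (63%), against 41.1% of all symbols. The median log2 fold change was 0.08 in the 18 members with E2F-type letters and 0.09 in the 27 tested members without. A match is a description of the sequence only. Only exact matches to the 4 letter sets were searched, so a gene without one may hold other E2F sites.

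Reads of the listed genes summed to 16969915 to 21843880 a library, recovered from the steps of the FPKM values (reads divided by gene length and scaled by library size). All 6 fibroblast markers were listed, with Col1a1 at 444 to 607 FPKM, Col1a2 at 405 to 553 FPKM and Vim at 560 to 665 FPKM. S100a4 was low, at 2.08 to 3.58 FPKM. Fn1 had 243, 345 and 343 FPKM in overexpression libraries, against 541, 537 and 319 FPKM in wild type libraries, and Pdgfrb had 6.91, 11.9 and 11.5 FPKM in overexpression libraries, against 17.8, 17.1 and 7.6 FPKM in wild type libraries. In both genes wild type replicate 3 lay with the overexpression libraries, and the part of this in the results was not tested. Of the markers of blood, epithelium, endothelium, muscle and fat, 12 were listed; 11 were below 1 FPKM in every library and Cdh1 had 2.19 to 2.82 FPKM. Wild type replicates 1 and 2 were nearly the same library. Over 14529 genes their chi-square per gene was 1.46, where counting error alone gives 1, against 5.15 to 25.1 in the 14 other pairs. Over the 54 members it was 0.794, so for these genes they differed by no more than counting error, against 4.9 to 41.5 in the other pairs. The other pairs did not all follow the labels. Over all genes wild type replicate 3 had 14.2, 11 and 8.6 with overexpression replicates 1, 2 and 3. With wild type replicates 1 and 2 it had 20.9 and 21. Overexpression replicates 2 and 3 had 5.15. Over the members overexpression replicate 3 had 5.05, 5.13 and 4.9 with wild type replicates 1, 2 and 3. With overexpression replicates 1 and 2 it had 29 and 11.1. Wild type replicates 1 and 2 were entered as 2 libraries. The calls and the count of members at an unadjusted p below 0.05 are also given with them averaged to 1. SDs, SEs, intervals, ratios and group overlaps are given only with them as 2 libraries, so the wild type spread may be understated there.

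The RNAs of the replication genes were present in all 6 libraries, at levels spread over a wide range. Pcna, the sliding clamp, ranked first and Rrm1, the large subunit of ribonucleotide reductase, ranked second in every library, at a mean of 92.1 and 83.7 FPKM over the 6. Means lay above 50 FPKM for 6 members, between 10 and 50 FPKM for 34 and under 10 FPKM for 14. The 6 were Pcna, Rrm1, Pold2, Dnmt1, Mcm3 and Rpa1. At the low end stood Orc5 at 4.3 FPKM and Cdc25a at 4.54 FPKM, with Fen1 far below at 0.435 FPKM. The order hardly differed between libraries, and no member's rank moved by more than 8 places between any 2 of them. The same 29 genes, from Pcna to Rfc1, filled the upper ranks in every library. Neighbours within the order often changed places, as Pold2 and Mcm3 did, each at ranks 3 to 6, and did not differ beyond their spread over libraries. A tested member had 311 to 8617 reads in a library, with a median of 1319, for which counting alone gives an error of 2.75%.

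**Figure D1:**
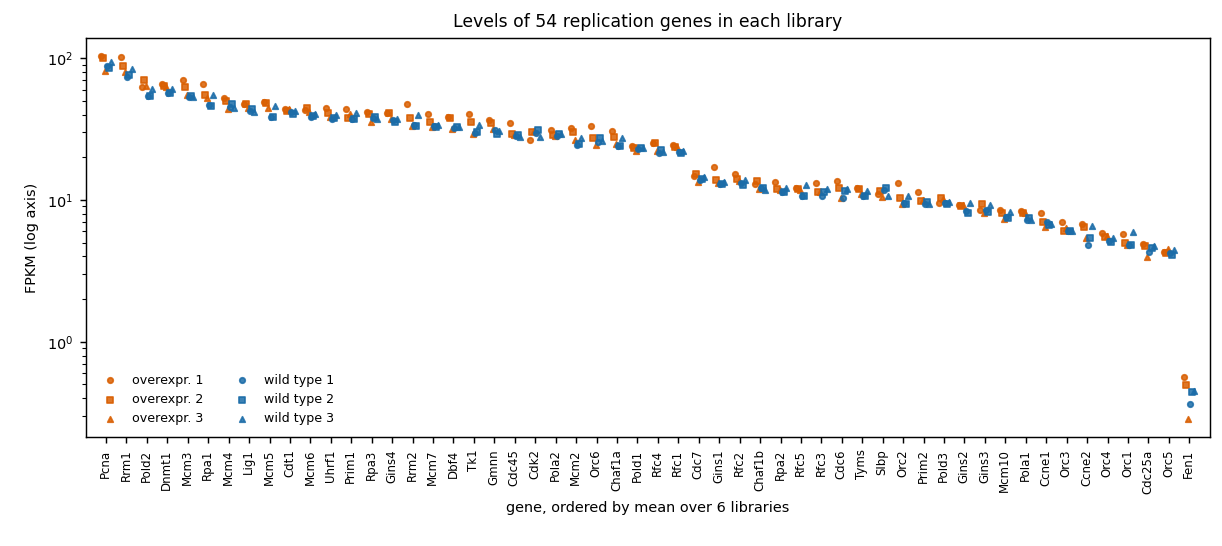
FPKM of the 54 genes (log axis), ordered by the mean over 6 libraries, with orange symbols for overexpression replicates 1 to 3 and blue symbols for wild type replicates 1 to 3. The symbols of a gene lie close together compared with the range of levels between genes, from Pcna at a mean of 92.1 FPKM to Fen1 at 0.435 FPKM.

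No member differed between overexpression and wild type at an adjusted p below 0.05, and 0% of the 12222 tested genes did (limma, Benjamini-Hochberg). The members' adjusted p-values ran from 0.842 to 0.999. At an unadjusted p below 0.05, 7 of 53 members were higher with overexpression, against 2.86% of tested genes, and 0 were lower, against 2.31%. Either way the background was 5.17%. The 7 were Pola1, Pold2, Dnmt1, Mcm5, Rfc1, Gmnn and Mcm3. This count depended on the scaling of the libraries. It was 1 after rescaling to total reads, to the upper quartile or by quantiles, and 0 after rescaling to a common FPKM sum or averaging wild type replicates 1 and 2. It was 2 without overexpression replicate 1, 15 without overexpression replicate 3, 10 without wild type replicate 3, and 0 without any 1 of the 3 other libraries. Over all tested genes it was 632 as deposited, 601 at the upper quartile, 551 by quantiles and 241 after that averaging. It was 594 without overexpression replicate 1, 997 without overexpression replicate 3, 1870 without wild type replicate 3 and 258 to 383 without 1 other library. The split over all tested genes moved with the scaling. It was 350 higher and 282 lower as deposited. At total reads 174 were higher and 453 lower, and at a common FPKM sum 103 were higher and 643 lower.

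The estimates lay mostly above 0 and were small. Of 53 members 48 had an estimate above 0, against 53.2% of tested genes, and the median log2 fold change of FPKM + 1 was 0.10, against 0.01 over all tested genes. The 5 estimates below 0 were those of Orc1, Pold1, Slbp, Cdk2 and Cdc25a, and the range ran from -0.05 for Slbp to 0.22 for Mcm3 and Rpa1. As a ratio of mean FPKM this was 0.96 to 1.17. At a common FPKM sum 40 of 53 lay above 0 with a median of 0.04, against 32.9% of tested genes and a median of -0.05. All 53 of the 95% intervals lay within a 1.5-fold change either way, and 36 lay within a 1.25-fold change. The median standard error was 0.08, close to the median estimate.

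**Figure D2:**
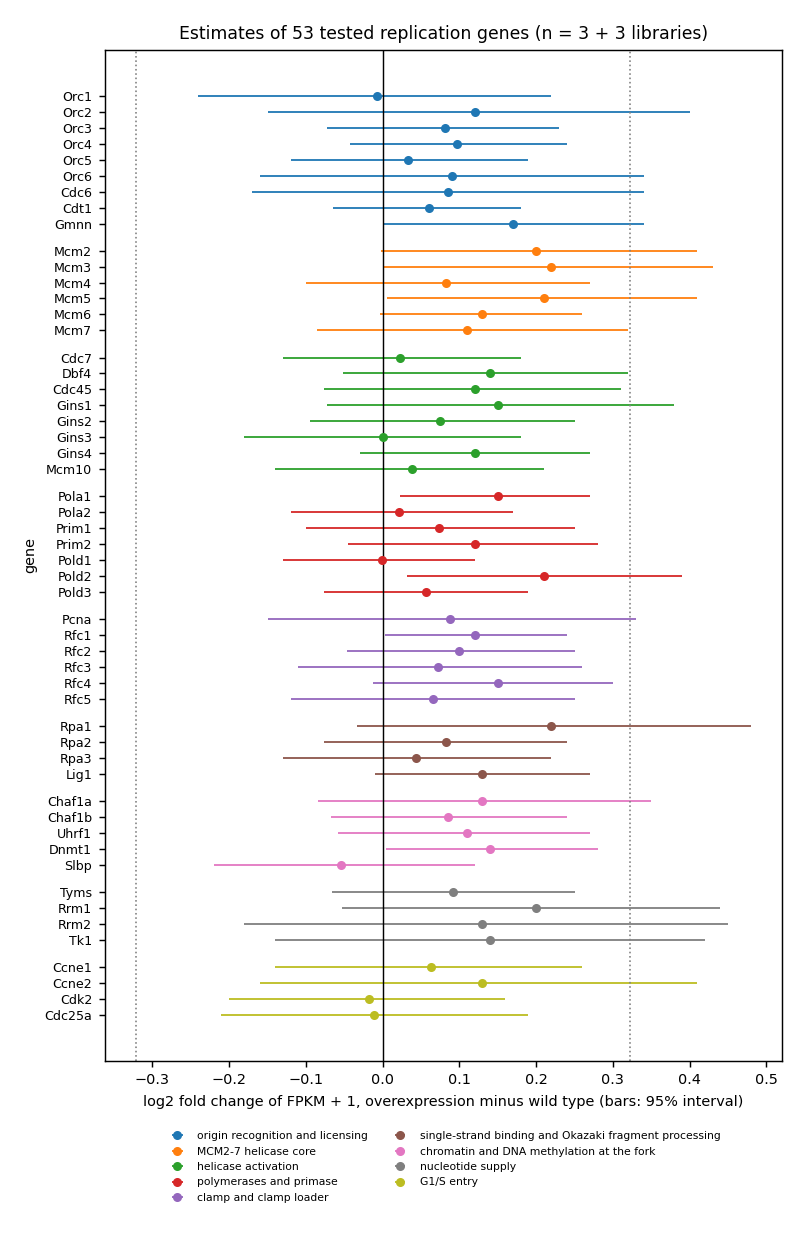
Log2 fold change of FPKM + 1, overexpression minus wild type, with its 95% interval for the 53 tested genes, coloured by role group; dotted lines mark a 1.25-fold change either way. 48 of 53 points lie right of 0, and 7 intervals exclude 0.

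The groups did not overlap, with every overexpression library above every wild type library, in 12 of 53 members, against 6.81% of tested genes. These were Orc3, Orc4, Cdt1, Gmnn, Mcm3, Mcm6, Pola1, Prim2, Pold2, Rfc1, Lig1 and Dnmt1. In 0 members did every overexpression library lie below every wild type library, against 4.69% of tested genes. Overlap was read on FPKM as deposited. The FPKM sum of a library was 373695 to 380910 with overexpression, against 353510 to 370542 in wild type. The part of this in the overlap counts was not tested. With limma array weights, which give each library a weight by its agreement with the fit, 18 of 53 members were called and all 18 were higher, against 18.3% of tested genes called and 11.1% called higher. The weights were 0.278, 4.64 and 0.593 in overexpression replicates 1 to 3 and 2.16, 2.57 and 0.236 in wild type replicates 1 to 3, so overexpression replicate 2 and the near-identical pair counted most. With that pair averaged, array weights called 0 members and 0 genes. Limma-voom on the recovered reads also called 0 members and 0 genes. In that fit 6 of 54 members had an unadjusted p below 0.05, against 755 of 14473 genes, of which 359 were higher and 396 lower.

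The replication genes differed among the overexpression libraries by about as much as between the groups. Median deviations from the gene means were 0.14, 0.05 and -0.04 on the log2 scale in overexpression replicates 1, 2 and 3, against -0.08, -0.07 and 0.0048 in wild type replicates 1, 2 and 3. Overexpression replicate 1 was thus the high library and replicate 3 lay below wild type replicate 3. Replicate 1 gave the highest value of all 6 libraries in 41 of 53 members, against 26.2% of tested genes. It lay above every wild type library in 45 members, against 32.7% of tested genes. Overexpression replicate 2 did so in 37 members, against 28.2%, and replicate 3 in 14, against 23.5%. Overexpression replicate 3 lay below every wild type library in 16 members, against 20.1% of tested genes. The median SD of a member within the overexpression group was 0.10, about the same as the median difference of 0.10 between the groups, and within wild type it was 0.05. Over all tested genes the median SD was 0.10 within overexpression and 0.09 within wild type. Between single overexpression libraries the median difference over the members was 0.17 for replicate 1 minus replicate 3, 0.06 for replicate 1 minus replicate 2 and 0.11 for replicate 2 minus replicate 3. The first of these was -0.00074 over all tested genes.

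Leaving out overexpression replicate 1 lowered the members' median log2 fold change to 0.05 with 41 of 53 above 0, and leaving out overexpression replicate 3 gave 0.15 with 51 above 0. By role, the medians without overexpression replicate 1 were 0.13 for the helicase core, 0.07 for single-strand binding and Okazaki fragment processing, 0.06 for chromatin at the fork, 0.06 for the clamp and its loader, and 0.04 for helicase activation. Licensing had 0.03 with 5 of 9 estimates above 0. The polymerase and primase median moved most with 2 other libraries, to 0.12 without overexpression replicate 2 and 0.11 without wild type replicate 3. Overexpression replicate 1 also had the fewest reads of the 6 libraries, and over all tested genes it was the highest library most often and also the lowest most often, in 25.2%, against 10.4% to 19.2% for each of the 5 other libraries. The part of these properties in the result was not tested. In wild type, replicate 3 gave the highest of the 3 values in 38 of 53 members, against 43.6% of tested genes.

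**Figure D3:**
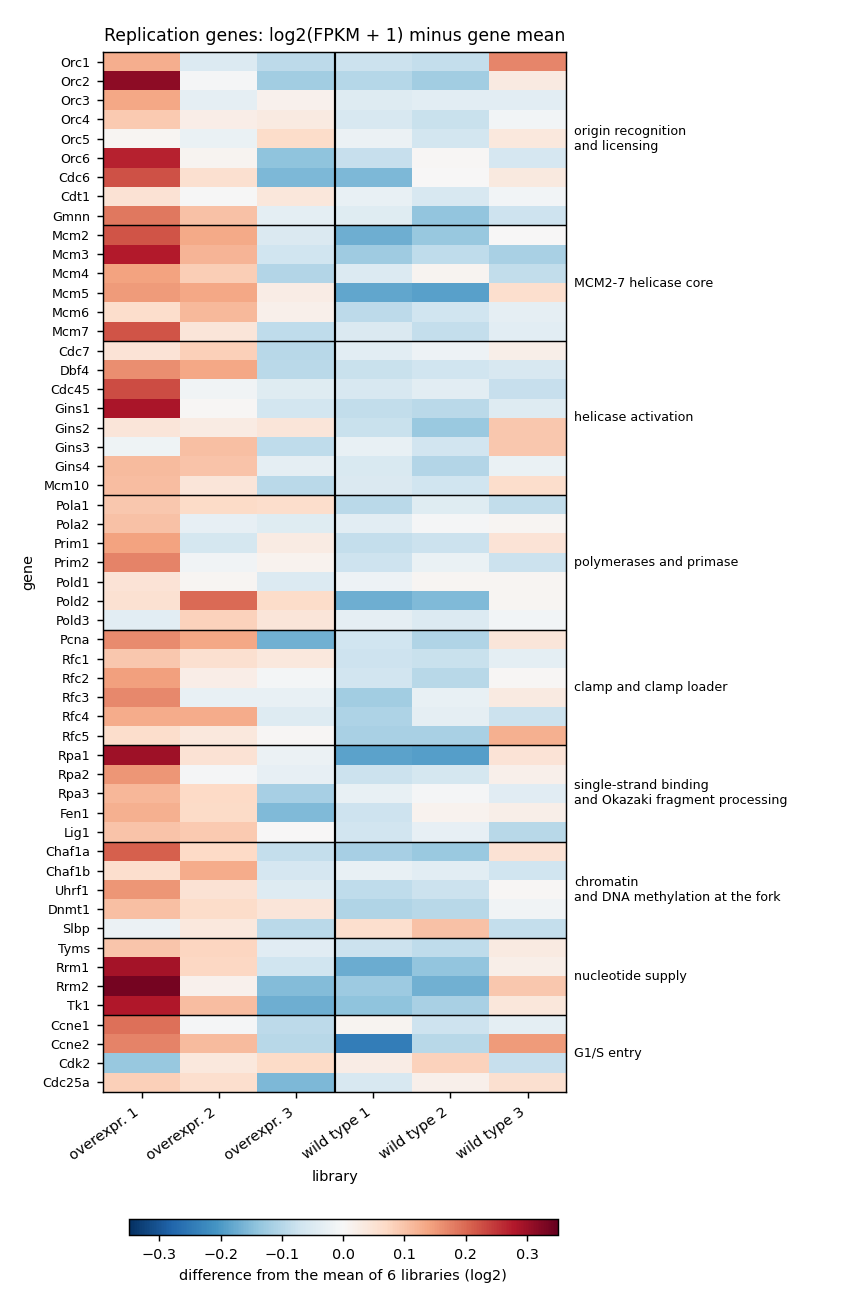
Difference of log2(FPKM + 1) from the gene's mean over 6 libraries (red above, blue below) for the 54 genes by role group, with overexpression replicates 1 to 3 left of wild type replicates 1 to 3. Overexpression replicate 1 is red in nearly every row, with a median of 0.14 over the 53 tested genes, and overexpression replicate 3 has a median of -0.04.

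The origin recognition and licensing genes mark and prepare origins. Of these 9 genes 8 had an estimate above 0 with a median of 0.09, against 6 and 0.03 at a common FPKM sum. Of the 9, 0 were called. Overexpression lay above wild type without overlap in 4, against 6.81% of tested genes. Gmnn encodes geminin, which binds Cdt1 and blocks relicensing after S phase has begun. Gmnn (chr13:24751845-24761923) had 36.8, 34.7 and 31.5 FPKM in overexpression replicates 1, 2 and 3, against 31.3, 29.2 and 30.6 FPKM in wild type replicates 1, 2 and 3. Its lowest overexpression library lay just above its highest wild type library. The log2 fold change was 0.17 (SE 0.07) with an adjusted p of 0.842 (limma). Cdt1 (chr8:122568015-122573554), the licensing factor that geminin binds, was the most abundant of the group with 43.9, 42.3 and 43.6 FPKM in overexpression libraries, against 41.6, 40.7 and 42.1 FPKM in wild type libraries. The groups did not overlap, by a margin of less than 1 FPKM, and the log2 fold change of 0.06 (SE 0.05) turned to -0.0037 at a common FPKM sum.

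Orc2 and Orc5 are subunits of the origin recognition complex. Orc2 had 13.1, 10.3 and 9.43 FPKM in overexpression libraries, against 9.59, 9.42 and 10.6 FPKM in wild type libraries. Overexpression replicate 1 stood apart, and without it the log2 fold change of 0.12 (SE 0.12) became -0.0046. Orc5, the least abundant of the group, had 4.32, 4.21 and 4.54 FPKM in overexpression libraries, against 4.22, 4.06 and 4.43 FPKM in wild type libraries, and the groups overlapped. Within the complex Orc6 made up 46.4% ± 1.7 of the summed FPKM of the 6 subunits in overexpression libraries and 46.3% ± 1.8 in wild type libraries (SD, n = 3 each). The 5 other subunits held 7.23% to 17.9% each in overexpression libraries. Cdc6, Orc1, Orc3 and Orc4 are further licensing members. Orc1 had an estimate of -0.0073 and the 3 others lay between 0.08 and 0.10.

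MCM2-7 is the 6-subunit ring that unwinds DNA. Each of the 6 genes had an estimate above 0, the median was 0.17 and 0 were called. This was the highest median of the role groups over the 6 libraries, but nucleotide supply had the higher one without overexpression replicate 3 (0.25 against 0.22) and without wild type replicate 3 (0.21 against 0.18). Mcm3 (chr1:20802968-20820312) was the most abundant subunit with 70.0, 62.6 and 54.9 FPKM in overexpression libraries, against 52.8, 54.1 and 53.2 FPKM in wild type libraries. Overexpression replicate 1 was the highest library, and the lowest overexpression library was less than 1 FPKM above the highest wild type library. Mean levels were 62.5 ± 7.54 FPKM with overexpression and 53.4 ± 0.666 FPKM in wild type (SD, n = 3 each), a log2 fold change of 0.22 (SE 0.09), which was 0.13 without overexpression replicate 1. Mcm2 (chr6:88883474-88898780), the least abundant, had 32.2, 30.2 and 26.5 FPKM in overexpression libraries, against 24.3, 25.0 and 27.5 FPKM in wild type libraries. The groups overlapped, since overexpression replicate 3 lay below wild type replicate 3.

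Mcm5 (chr8:75109569-75128439) had 48.7, 48.2 and 44.6 FPKM in overexpression libraries, against 38.5, 38.3 and 45.7 FPKM in wild type libraries. Wild type replicates 1 and 2 were low and wild type replicate 3 lay above overexpression replicate 3. The log2 fold change was 0.21 (SE 0.09), with an adjusted p of 0.842 (limma). Mcm6 (chr1:128331590-128359664), whose promoter is shown above, had 42.8, 44.4 and 41.5 FPKM in overexpression libraries, against 38.4, 39.0 and 40.1 FPKM in wild type libraries. Here the groups did not overlap and the overexpression libraries were close together, with a log2 fold change of 0.13 (SE 0.06). Mcm4 and Mcm7 had estimates of 0.08 and 0.11.

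The subunits' shares of their summed FPKM were compared next. Mcm3 held 23.4% ± 0.99 of the summed FPKM in overexpression libraries and 22.4% ± 0.61 in wild type libraries, and Mcm2 held 11.1% ± 0.19 in overexpression libraries and 10.7% ± 0.45 in wild type libraries (SD, n = 3 each). The share of Mcm4 was 18.2%, 18.4% and 18% in overexpression libraries, against 19.5%, 20% and 18.1% in wild type libraries, and only wild type replicate 3 lay within the overexpression range. The shares of the groups overlapped for all 6 genes.

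**Figure D4:**
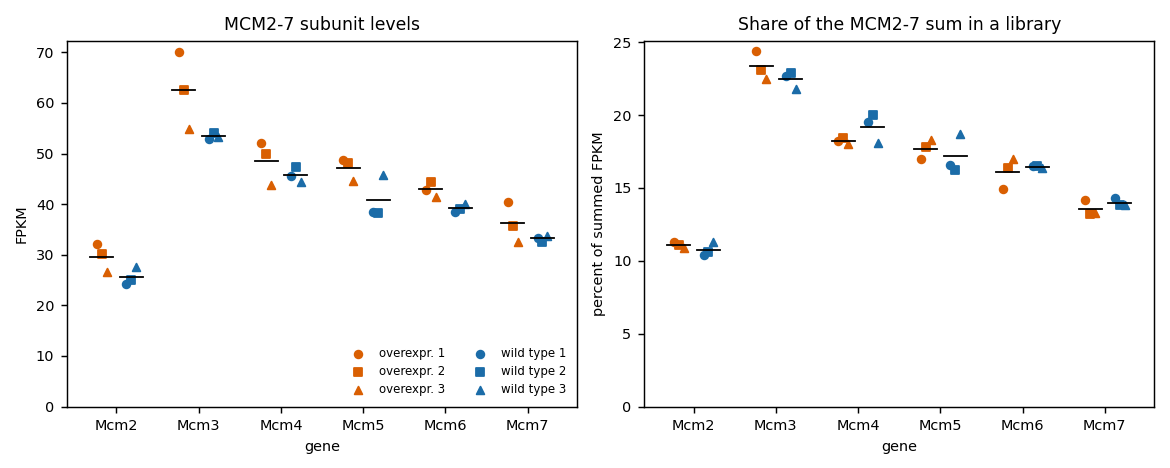
Left, FPKM of the 6 MCM2-7 genes; right, each gene's share of their summed FPKM in a library (percent), with overexpression libraries (orange) left of wild type libraries (blue) and the group mean as a bar. Mcm3 has the highest level and share and Mcm2 the lowest in both groups, and overexpression replicate 1 has the highest level for 5 of the 6 genes.

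Helicase activation is carried out by the kinase Cdc7 with its partner Dbf4, by Cdc45, by the 4 GINS subunits and by Mcm10. Each of the 8 genes had an estimate above 0, the median was 0.10 and 0 were called. At a common FPKM sum 5 of 8 lay above 0 with a median of 0.04. As deposited, none had groups that did not overlap, against 6.81% of tested genes with overexpression above wild type and 4.69% below. Gins4, the most abundant, had 41.2, 40.9 and 37.3 FPKM in overexpression libraries, against 36.7, 35.4 and 37.5 FPKM in wild type libraries. Only overexpression replicate 3 lay within the wild type range. Mcm10, the least abundant, had 8.54, 8.11 and 7.29 FPKM in overexpression libraries, against 7.55, 7.44 and 8.24 FPKM in wild type libraries, and its estimate of 0.04 (SE 0.08) turned to -0.02 at a common FPKM sum. The ratio of Dbf4 to Cdc7 was 2.59, 2.48 and 2.41 in overexpression libraries, against 2.33, 2.31 and 2.26 in wild type libraries, with no overlap. It was 1 of 11 ratios compared between partner genes, which were chosen after their values were seen. Of these 4 did not overlap. No share over other gene pairs was computed to set beside this count, and no test was made of the ratios.

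The replicative polymerases and primase lay down and extend new DNA. Of 7 genes 6 had an estimate above 0 with a median of 0.07, against 4 and 0.01 at a common FPKM sum. Overexpression lay above wild type without overlap in 3, against 6.81% of tested genes. Pold2 (chr11:5872180-5878292), an accessory subunit of polymerase delta, had 63.0, 69.8 and 63.5 FPKM in overexpression libraries, against 53.8, 54.4 and 60.9 FPKM in wild type libraries. Overexpression replicate 2 was the highest library, and wild type replicate 3 came closest to the overexpression group. The mean was 65.4 ± 3.81 FPKM with overexpression and 56.4 ± 3.97 FPKM in wild type (SD, n = 3 each), a log2 fold change of 0.21 (SE 0.08) with an adjusted p of 0.842 (limma). Pold1, which encodes the catalytic subunit of the same enzyme, had an estimate of -0.00039. The ratio of Pold2 to Pold1 was 2.63, 3.01 and 2.85 in overexpression libraries, against 2.36, 2.34 and 2.62 in wild type libraries. These groups nearly met but did not overlap.

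Pola1 (chrX:93304767-93632155), the catalytic subunit of polymerase alpha, which extends the RNA primers, had 8.30, 8.14 and 8.09 FPKM in overexpression libraries, against 7.17, 7.46 and 7.22 FPKM in wild type libraries. Both groups were tight and they did not overlap. The log2 fold change was 0.15 (SE 0.05; 95% interval 0.02 to 0.27) with an adjusted p of 0.842 (limma). Its partner subunit Pola2 differed less, with an estimate of 0.02, and the ratio of Pola2 to Pola1 was 3.58 ± 0.16 in overexpression libraries and 3.96 ± 0.08 in wild type libraries (SD, n = 3 each) and the ratios did not overlap. Prim1 and Prim2, the primase subunits, had a ratio of 3.91 ± 0.10 in overexpression libraries and 4.06 ± 0.27 in wild type libraries.

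Pcna forms the sliding clamp that tethers polymerases to DNA, and the Rfc1 to Rfc5 complex loads it. Each of the 6 genes had an estimate above 0 and the median was 0.10. Overexpression lay above wild type without overlap in 1, against 6.81% of tested genes. Pcna (chr2:132249162-132253314) had 103, 101 and 81.6 FPKM in overexpression libraries, against 87.5, 85.3 and 94.5 FPKM in wild type libraries. Overexpression replicates 1 and 2 were the highest of the 6 and overexpression replicate 3 was the lowest, and the estimate of 0.09 (SE 0.10) ran from 0.03 without overexpression replicate 1 to 0.19 without overexpression replicate 3. Rfc1 (chr5:65261850-65335670), the large loader subunit, had 24.5, 23.8 and 23.5 FPKM in overexpression libraries, against 21.7, 21.6 and 22.3 FPKM in wild type libraries. The groups were tight and did not overlap, with a log2 fold change of 0.12 (SE 0.05). Rfc3, the least abundant, had 13.2, 11.4 and 11.4 FPKM in overexpression libraries, against 10.6, 11.4 and 11.9 FPKM in wild type libraries, which overlapped.

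Rpa1, Rpa2 and Rpa3 coat single-stranded DNA, and Fen1 and Lig1 trim and seal Okazaki fragments on the lagging strand. The 4 tested genes of the group all had an estimate above 0, and the median was 0.11. At a common FPKM sum 3 of 4 lay above 0 with a median of 0.04. Rpa1 (chr11:75298166-75348324) had 65.3, 54.9 and 52.2 FPKM in overexpression libraries, against 46.4, 46.2 and 54.8 FPKM in wild type libraries. Wild type replicates 1 and 2 were the low libraries, and wild type replicate 3 lay above overexpression replicate 3, so the groups overlapped. Its log2 fold change of 0.22 had the widest upper bound of the members, with a 95% interval of -0.03 to 0.48, and was 0.13 without overexpression replicate 1. Lig1 (chr7:13277283-13311433), the replicative ligase, had 47.8, 47.6 and 44.6 FPKM in overexpression libraries, against 42.5, 43.7 and 41.6 FPKM in wild type libraries, and the groups did not overlap. Its log2 fold change was 0.13 (SE 0.06).

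Fen1 (chr19:10199132-10204169), the flap endonuclease, had the lowest level of the 54. It had 0.561, 0.499 and 0.287 FPKM in overexpression libraries, against 0.363, 0.445 and 0.453 FPKM in wild type libraries, from 13 to 26 reads a library. No difference was detectable at this depth. The annotated exons of Fen1 span 2422 bases, of which 1909 (78.8%) also belong to Gm10143 on the other strand, itself at 0.223 to 0.418 FPKM, and 130 bases belong to Tmem258. Whether strand was used in counting is not given in the sources used here, so the level of Fen1 is uncertain. In all, 17 of the 54 members share exon bases with a gene on the other strand. Among the 37 tested members without such overlap 35 had an estimate above 0, with a median of 0.09.

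Behind the fork, Chaf1a and Chaf1b deposit new histones, Uhrf1 and Dnmt1 copy DNA methylation, and Slbp binds the stem-loop that ends histone messages. Of these 5 genes 4 had an estimate above 0 with a median of 0.11. Overexpression lay above wild type without overlap in 1, against 6.81% of tested genes. Dnmt1 (chr9:20907209-20959888), the maintenance methyltransferase, had 65.4, 63.5 and 62.5 FPKM in overexpression libraries, against 56.4, 56.7 and 60.2 FPKM in wild type libraries. The overexpression libraries lay together above the wild type libraries, with a log2 fold change of 0.14 (SE 0.06) and an adjusted p of 0.842 (limma). Slbp (chr5:33634952-33652574) had 11.1, 11.6 and 10.5 FPKM in overexpression libraries, against 11.8, 12.2 and 10.6 FPKM in wild type libraries. It was the member with the lowest estimate, -0.05 (SE 0.07), and its groups overlapped.

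The nucleotide supply genes provide deoxynucleotides. Rrm1 and Rrm2 form ribonucleotide reductase, Tyms makes thymidylate and Tk1 salvages thymidine. All 4 had estimates above 0 with a median of 0.14, and 0 were called. None had groups that did not overlap, against 6.81% of tested genes with overexpression above wild type and 4.69% below. The median was 0.05 with 3 of 4 above 0 without overexpression replicate 1, and 0.25 without overexpression replicate 3. Rrm1 (chr7:102441695-102469771) had 102, 87.6 and 79.3 FPKM in overexpression libraries, against 73.7, 75.5 and 84.4 FPKM in wild type libraries. Rrm2 (chr12:24708241-24714146) had 47.2, 37.6 and 33.4 FPKM in overexpression libraries, against 34.0, 33.0 and 39.8 FPKM in wild type libraries. In both genes overexpression replicate 1 was far above the rest and wild type replicate 3 lay above overexpression replicate 3. Without overexpression replicate 1 the estimate for Rrm1, 0.20 (SE 0.10) over all libraries, became 0.10, and that for Rrm2, 0.13 (SE 0.13) over all libraries, became -0.0012. The ratio of Rrm1 to Rrm2 was 2.29 ± 0.11 in overexpression libraries and 2.19 ± 0.09 in wild type libraries (SD, n = 3 each). Tyms (chr5:30058202-30073617), the least abundant, had 12.2, 12 and 11 FPKM in overexpression libraries, against 10.7, 10.6 and 11.6 FPKM in wild type libraries, which overlapped.

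The G1/S entry genes encode cyclins E1 and E2, their kinase Cdk2 and the phosphatase Cdc25a that activates it. Their median was 0.03, and 2 of 4 had an estimate above 0. The median was -0.03 at a common FPKM sum, -0.0020 at total reads, 0.01 without overexpression replicate 1 or without wild type replicate 1, and 0.10 without overexpression replicate 3. Cdk2 (chr10:128697939-128705031) had 26.6, 30.0 and 30.7 FPKM in overexpression libraries, against 29.8, 31.0 and 27.6 FPKM in wild type libraries. Unlike most members it was lowest in overexpression replicate 1. Cdc25a (chr9:109875579-109893895) had 4.86, 4.76 and 3.96 FPKM in overexpression libraries, against 4.32, 4.60 and 4.75 FPKM in wild type libraries. The groups overlapped and the estimate of -0.01 (SE 0.09) changed sign under several settings. Ccne2 (chr4:11191351-11204779) had 6.74, 6.41 and 5.41 FPKM in overexpression libraries, against 4.80, 5.41 and 6.6 FPKM in wild type libraries. Its wild type libraries spread more widely than the group means differed, with an estimate of 0.13 (SE 0.12), which was 0.04 without wild type replicate 1 and 0.23 without wild type replicate 3.

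Genes outside the 54 with related roles were read from the same fit. Of 26 other fork genes, among them the polymerase epsilon subunits and checkpoint mediators, 0 were called, 19 had an estimate above 0 and the median was 0.04, which turned to -0.01 at a common FPKM sum and was 0.01 to 0.08 with 1 library left out. Topbp1, an activator of the ATR kinase, had 25.0, 23.2 and 21.5 FPKM in overexpression libraries, against 20.9, 20.5 and 22.1 FPKM in wild type libraries. Pclaf, a partner of PCNA, had 42.8, 38.4 and 32.9 FPKM in overexpression libraries, against 31.5, 32.1 and 35.9 FPKM in wild type libraries. In both genes overexpression replicate 3 lay within the wild type range.

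Of 28 other nucleotide synthesis genes 27 were tested, 0 were called, 24 had an estimate above 0 and the median was 0.11. The median was 0.06 without overexpression replicate 1, 0.07 without wild type replicate 1 and 0.18 without wild type replicate 3. At a common FPKM sum 20 of 27 lay above 0 with a median of 0.055. Umps, which converts orotate to UMP, had 32.7, 27.6 and 26.4 FPKM in overexpression libraries, against 23.6, 22.9 and 26.5 FPKM in wild type libraries, a log2 fold change of 0.24 (SE 0.10; adjusted p of 0.842, limma). The groups overlapped, since wild type replicate 3 lay just above overexpression replicate 3.

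All 24 genes of a mitosis list had an estimate above 0, with a median of 0.08, against 18 of 24 and 0.02 at a common FPKM sum, and 0 were called. The median was 0.14 without overexpression replicate 3. Cdc20, which switches on the anaphase-promoting complex, had 66.7, 63.7 and 58.8 FPKM in overexpression libraries, against 54.2, 53.9 and 57.3 FPKM in wild type libraries. Cenpe, a kinetochore motor, had 16.5, 16.9 and 16.2 FPKM in overexpression libraries, against 15.2, 14.5 and 15.3 FPKM in wild type libraries. The groups overlapped in neither gene. Per library the mitosis list lay at 0.10, 0.07 and -0.02 in overexpression libraries, against -0.05, -0.03 and -0.03 in wild type libraries, in the same order of overexpression libraries as the replication genes. Mki67, the proliferation marker, had an estimate of 0.02 and was chosen for mention after its value was seen.

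**Figure D5:**
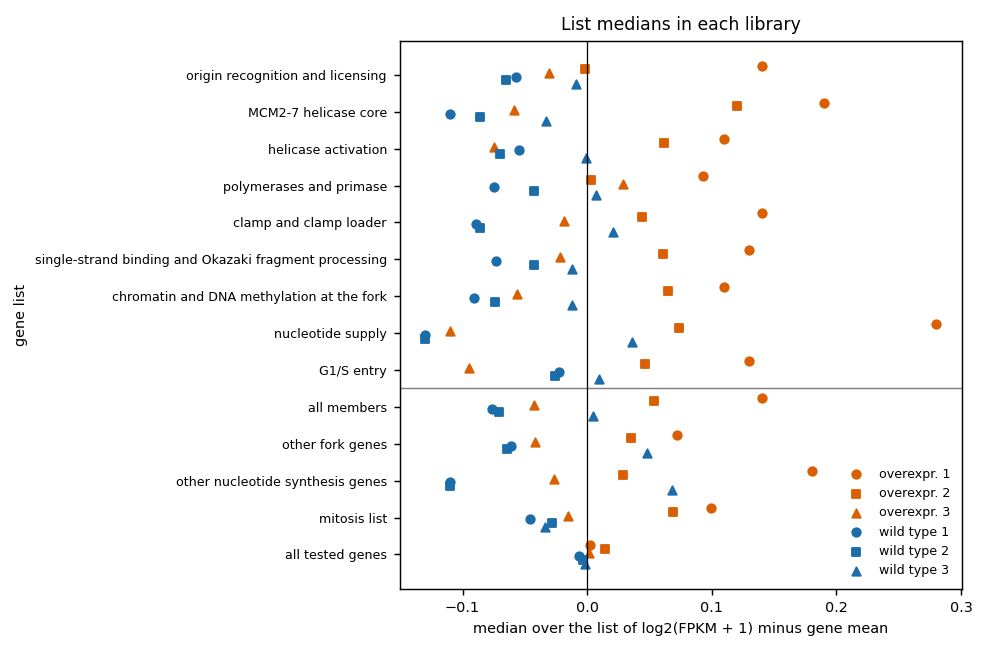
Median of log2(FPKM + 1) minus the gene's mean, over each role group and comparison list, in overexpression replicates 1 to 3 (orange) and wild type replicates 1 to 3 (blue). Overexpression replicate 1 is the highest library in every role group, up to 0.28 for nucleotide supply, whereas the medians over all tested genes lie between -0.0062 and 0.014.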

How the data were processed

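RNA-seq was done on 3 overexpression and 3 wild type NIH3T3 libraries. Total RNA was digested with DNase I before NEBNext Ultra RNA libraries were built, per the labels' protocols. The deposited values are FPKM per Ensembl gene, computed by the authors, per the file headers. The genome build is mm10, per the submitters' processing notes. Not given in the sources used here are the annotation, the aligner and how reads were counted, strand included.

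Groups were taken from the genotype label and replicate numbers from the titles. Genes above 1 FPKM in at least 3 libraries (12222 of 24938) were tested on log2(FPKM + 1) with limma 3.58.1 (R 4.3.3), using trend and robust options and a single term for group. P-values were adjusted by Benjamini-Hochberg over all tested genes and calls made at 0.05. Fold changes are log2(FPKM + 1) in overexpression minus wild type, so those of low genes are understated. The test was also run on simulated data. Gene coordinates are those of GENCODE for mm10.

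FPKM values were whole multiples of a step per library and gene length, within 0.01 reads plus a relative 1e-08, which returned read numbers. The annotated length gave whole reads for 19832 genes (79.5%). For 5106, 13 of them members, the shortest length that gave whole reads was taken. Whole reads there are no check, and the reads of these genes may be understated. Read numbers cover counting error only.

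The members and lists were chosen with earlier results of these data known. Named with values in every library were the most and least abundant member of each role group, the 10 with the smallest unadjusted p, the 5 with the widest range between libraries and any member failing the filter, and of each other list the 2 genes with the smallest unadjusted p. A gene named by this rule is not reported here. Partner ratios and other members named beside these were chosen after their values were seen. Promoters come from RefSeq on GRCm38.p6. Alternatives covered the pseudocount, the filter, the scaling, weights, averaging of wild type replicates 1 and 2, a replicate block, limma-voom on recovered reads, and leaving out each library.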

Additional observations from a re-analysis of the deposited data

How the results depend on the processing

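Under all 19 alternatives the members' median log2 fold change stayed above 0, at 0.04 to 0.15. No member was called except with array weights, which called 2241 genes and 18 members; with wild type replicates 1 and 2 averaged as well, a setting chosen after seeing the data like the rescaling to total reads, they called 0 of each. Leaving out 1 library gave 0 to 2 genes, 0 members, a median of 0.05 to 0.15 and 41 to 51 members above 0; the genes were Mir7061 without overexpression replicate 1 and Ccl9 and Errfi1 without wild type replicate 3. At a common FPKM sum 40 of 53 members lay above 0. The replicate block called 0 members and 0 genes, with 444 genes and 0 members at an unadjusted p below 0.05, against 632 and 7 without it. Deviations of libraries that share a number correlated at -0.10, 0.08 and 0.0025, so no effect shared by a number was seen. Because wild type replicates 1 and 2 were nearly the same, this cannot exclude pairing.

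Several estimates changed sign, among them those of Rrm2 and Orc2, which were 0.13 and 0.12 over all libraries. The cause was not tested. At a common FPKM sum Cdt1 was -0.0037, Orc5 -0.019 and Mcm10 -0.020. Cdc25a was 0.016 by quantiles and 0.048 with array weights, and Cdk2 was 0.0050 with wild type replicates 1 and 2 averaged. Averaging combined with array weights gave Orc5 -0.0066, Rfc3 -0.00086, Slbp 0.020, Cdk2 0.043 and Cdc25a 0.015. Leaving out 1 library gave a range of -0.0074 to 0.094 for Mcm10, -0.063 to 0.043 for Cdk2, -0.055 to 0.065 for Cdc25a, -0.0012 to 0.24 for Rrm2 and -0.0046 to 0.22 for Orc2. Counting error was largest for Fen1, at 27.7% for 13 reads, against at most 5.67% for a tested member.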

Other observations

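Among the nucleotide synthesis genes outside the 54, Shmt2 and Nme1 were chosen for mention after their values were seen. Shmt2, the mitochondrial serine hydroxymethyltransferase that feeds one-carbon units to nucleotide synthesis, had 73.9, 65.2 and 66 FPKM in overexpression libraries, against 51.2, 53.2 and 87.2 FPKM in wild type libraries. Nme1, a nucleoside diphosphate kinase, had 11.1, 9.21 and 8.84 FPKM in overexpression libraries, against 6.27, 6.09 and 10.3 FPKM in wild type libraries. In both genes wild type replicate 3 lay far above wild type replicates 1 and 2, and the estimates of 0.14 (SE 0.20) and 0.36 (SE 0.19) were not called (adjusted p of 0.897 and 0.842, limma). Nme1 shares exon bases with Gm20390, as does Nme2, which had 0.24 to 1.16 FPKM and was not tested. How reads on shared bases were counted is not given, so the level of Nme1 is uncertain. Over the 27 tested genes of that list the median deviation was 0.18, 0.03 and -0.03 in overexpression libraries, against -0.11, -0.11 and 0.07 in wild type libraries.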
